A study of Mus musculus with 4 samples.

Results

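The 10 genes described here encode subunits of the transcription factor NF-κB and the proteins that hold it back or redirect it. The subunit genes are *Nfkb1*, *Nfkb2*, *Rel* and *Relb*, and the inhibitors and regulators are *Nfkbia*, *Nfkbie*, *Nfkbid*, *Nfkbiz*, *Bcl3* and *Tnfaip3*. They were chosen by symbol, and all 10 are among the 31053 genes of each of the 4 single-cell count matrices. The cells were liver mononuclear cells from C57BL/6 mice of 8 to 10 weeks with no stated genetic change. Each condition was 1 library: untreated mice (Naïve), and mice given Concanavalin A (ConA) plus vehicle (ConA+Veh), TCDD (ConA+TCDD) or FICZ (ConA+FICZ). ConA, a lectin from the jack bean, activates T cells in large numbers and inflames the liver on injection. TCDD, a dioxin, and FICZ, a compound formed from tryptophan, are ligands of the aryl hydrocarbon receptor (AhR), a transcription factor that senses small molecules. The study's methods place TCDD or its corn oil vehicle 1 hour after intravenous ConA and the harvest at 24 hours. The dose and timing of FICZ and the number of mice behind a library are not given in the sources used here. Every difference between libraries thus stands without a replicate check, and the spread between mice is unknown.

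NF-κB proteins wait in the cytoplasm, held by inhibitors of the IκB family, until receptors for cytokines, microbial products or antigen trigger a kinase complex that sends the inhibitor to be degraded. In the classical branch the products of *Nfkb1*, *Rel* and *Rela* enter the nucleus and switch on inflammatory genes together with the gene of their own inhibitor, *Nfkbia*, while in the alternative branch the kinase encoded by *Map3k14* activates the product of *Nfkb2* paired with that of *Relb*. Other members of the IκB family, encoded by *Nfkbid*, *Nfkbiz* and *Bcl3*, work inside the nucleus as regulators and are not plain inhibitors. The ubiquitin-editing enzyme A20, encoded by *Tnfaip3*, shuts the signal off upstream. In the liver, NF-κB is known both for driving inflammation in immune cells and for protecting liver cells from death.

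Since several of these genes are themselves known targets of NF-κB, the sequence before the start of 4 members that recur in the results is shown. Each is 250 bases ending at an annotated start, read 5′ to 3′ on the strand of the gene from RefSeq (GRCm38.p6), and capitals mark letters that match the κB consensus on either strand.
Nfkbid, second start, chr7:30422156-30422405, plus strand: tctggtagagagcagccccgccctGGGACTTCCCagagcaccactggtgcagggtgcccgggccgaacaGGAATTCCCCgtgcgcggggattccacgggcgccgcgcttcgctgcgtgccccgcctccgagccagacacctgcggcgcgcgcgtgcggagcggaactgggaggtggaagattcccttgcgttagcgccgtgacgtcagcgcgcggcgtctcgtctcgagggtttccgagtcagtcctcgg
Rel, chr11:23770970-23771219, minus strand: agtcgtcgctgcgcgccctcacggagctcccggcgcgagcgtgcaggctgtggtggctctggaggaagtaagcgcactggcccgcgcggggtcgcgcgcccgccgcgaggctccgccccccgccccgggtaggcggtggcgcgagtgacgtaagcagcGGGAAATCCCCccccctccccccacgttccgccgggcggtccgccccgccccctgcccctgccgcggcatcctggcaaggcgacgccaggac
Nfkbia, chr12:55492648-55492897, minus strand: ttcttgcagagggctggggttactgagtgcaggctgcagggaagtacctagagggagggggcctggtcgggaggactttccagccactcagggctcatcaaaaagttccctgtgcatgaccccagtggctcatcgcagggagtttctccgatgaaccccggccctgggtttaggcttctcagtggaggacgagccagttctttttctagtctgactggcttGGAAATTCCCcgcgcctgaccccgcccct
Nfkbie, chr17:45555450-45555699, plus strand: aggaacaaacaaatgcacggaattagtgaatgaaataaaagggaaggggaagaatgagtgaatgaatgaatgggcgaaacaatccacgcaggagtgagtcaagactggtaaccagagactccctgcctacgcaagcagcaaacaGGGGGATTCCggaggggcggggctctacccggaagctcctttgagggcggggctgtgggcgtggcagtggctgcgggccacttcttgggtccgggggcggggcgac
The windows of *Nfkbia* and *Nfkbie* hold no exon base, that of *Rel* holds 1, and that of *Nfkbid* lies within the gene body (chr7:30421732-30428746), ahead of a later start and in no exon. *Nfkbid* had matches in 2 stretches of this window, whose last bases lie 217 and 172 bases before that start. The windows of its other annotated starts, including the one directly ahead of the gene, held no match and are not shown. The match of *Nfkbia* ends 20 bases before the start, that of *Nfkbie* 97 bases and that of *Rel* 82 bases. A window was at hand for 7 of the 10 members, and 6 of these 7, all but *Bcl3*, had a match in at least 1 window, against 8.23% of the 27025 genes in the table. By window, 8 of the 12 windows of the members held a match, against 7.25% of all 32851 windows and 10.07% of the 19344 windows with at least 50% G and C. These are matches of letters and say nothing of whether NF-κB was bound there. *Nfkb1*, *Relb* and *Nfkbiz* are named only.

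The libraries held 1880 to 2779 cell barcodes with a median of 2161 unique molecular identifiers (UMIs, counted RNA molecules) in Naïve and 3147 to 3984 in the others. Cells were assigned to a class by marker genes, none of them a member, which gave 422 to 1087 B cells, 521 to 814 T cells, 122 to 219 natural killer (NK) cells and 61 to 259 mononuclear phagocytes (monocytes and macrophages) per library. Between 7.19% and 20.2% of barcodes met no rule, with the highest share in ConA+TCDD, and any pair of libraries shared 4 to 15 barcodes. B, T and NK cells expressed every marker of their lists in all 4 libraries, whereas 4 of 17 phagocyte markers in Naïve and 3 in ConA+FICZ were at 0. Markers of Kupffer cells, the resident macrophages, were scarce: *Clec4f*, *Vsig4*, *Timd4* and *Marco* had 0 UMIs in the phagocytes of Naïve and ConA+FICZ, 4 to 16 UMIs each in those of ConA+Veh and 1 or 2 in those of ConA+TCDD. The phagocytes of ConA+TCDD stood apart: neutrophil markers summed to 6336 counts per 1000000 UMIs (CPM) there, against 184 to 613 CPM in the other libraries. ConA+FICZ also held 193 hepatocytes, although the preparation was meant to enrich mononuclear cells.

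Levels are given as CPM, the UMIs of a gene summed over the cells of a class scaled to 1000000 UMIs of those cells, with exact Poisson 95% intervals, and ratios are given as log2 ratios with exact binomial 95% intervals. All intervals cover counting error only. A gene with at least 20 UMIs in the libraries compared was called higher or lower when its level differed at least 2-fold and the interval of the ratio left out 0. Fewer cells in a class do not lower its CPM, but a change in the mix of cells inside a class can change it, and the part of such a change in these values was not tested except where subsets are given.

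The members differed in the cell class in which they were highest. *Rel*, which encodes the c-Rel subunit that lymphocytes use, was highest in B cells in all 4 libraries, with intervals that did not overlap those of the next class. *Tnfaip3* was highest in NK cells in all 4, at 608, 418, 396 and 405 CPM in the order Naïve, vehicle, TCDD and FICZ. Its NK cell intervals overlapped no other class except in Naïve. There NK cells had 514 to 714 CPM and neutrophils, on 20 UMIs, 215 to 543 CPM. Among the 4 main classes and neutrophils *Tnfaip3* was lowest in B cells, at 23.1 to 44.4 CPM. *Nfkbia*, which encodes IκBα, was highest in neutrophils, at 1562 to 2409 CPM, followed among the 4 main classes by phagocytes and NK cells at 920 to 1369 CPM and by T and B cells at 322 to 515 CPM. Phagocytes and NK cells did not differ beyond their intervals in *Nfkbia* except in ConA+Veh. Granulocyte progenitors and endothelial cells lay between NK and T cells in some libraries, at 837 and 654 CPM in ConA+Veh.

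*Nfkbiz*, which encodes IκBζ, followed a like order, with 365 to 914 CPM in neutrophils and 20.6 to 55.9 CPM in B cells. *Nfkbie*, which encodes IκBε, was lowest in T cells among these classes, at 16.9 to 24.4 CPM, and its intervals in B cells, NK cells and phagocytes lay above those of T cells in every library except for NK cells of Naïve, where 12 UMIs gave 49.3 CPM (25.5 to 86.1). *Nfkbid*, which encodes IκBNS, a regulator that B cells need for some antibody responses, was highest in B cells in Naïve alone. In the 4 main classes *Nfkb1* lay between 77.4 and 192 CPM, *Nfkb2* between 25.8 and 100.7 CPM, *Relb* between 9.85 and 90.4 CPM, and *Bcl3* between 32.9 and 117 CPM.

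**Figure D1:**
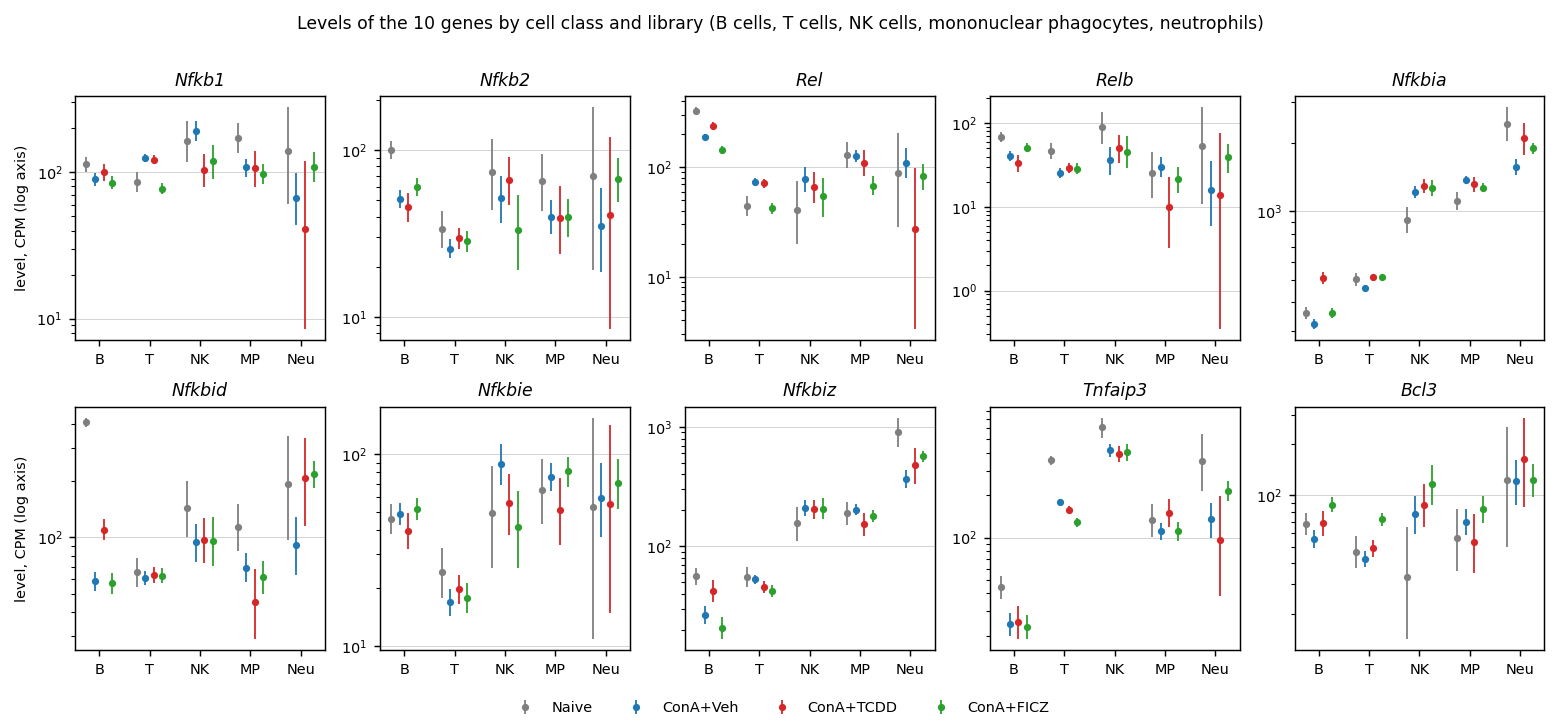
Level of each of the 10 genes in CPM (log axis) in B cells (B), T cells (T), NK cells (NK), mononuclear phagocytes (MP) and neutrophils (Neu), by library; points are sums over the cells of 1 library and bars are exact Poisson 95% intervals (counting error only). *Nfkbid* in B cells of Naïve (408 CPM) stands above B cells of the other libraries (57.1 to 110 CPM), and *Rel* is highest in B cells and *Tnfaip3* in NK cells in every library.

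The first comparison set the ConA+Veh library, from 24 hours after ConA, against the Naïve library. In B cells, *Nfkbid* fell by 2.81 on the log2 scale, and *Nfkbiz* fell by 1.07. No member was called higher in B cells, and none was called in T cells or phagocytes, while in NK cells *Bcl3* rose and *Relb* fell.

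In B cells the levels of *Nfkbid* were 408 CPM in Naïve (384 to 433) and 58.4 CPM in ConA+Veh (51.7 to 65.6). The log2 ratio was -2.81 (-3.0 to -2.62). It was -2.82 in B cells with UMIs of fewer than 2 cycling genes, and over 12 alternatives it ran from -2.89 to -1.59. At equal depth, with every cell thinned to 1000 UMIs, 35.7% of the B cells of Naïve held a UMI of *Nfkbid*, against 6.51% in ConA+Veh, 8.07% in ConA+TCDD and 8.83% in ConA+FICZ. Thinning left out 31, 68, 38 and 37 B cells. Without thinning the shares were 52.1%, 20.9%, 19.0% and 20.9%. Hepatocytes, all from ConA+FICZ, held *Nfkbid* in 0 of 89 cells with at least 1000 UMIs, which allows a share of up to 4.06%, and the background in Naïve was not measured in this way. The hepatocytes had a median of 951 UMIs, against 2128 to 4194 in B cells. The mix of B cells also differed by the clusters of the study. It reports CD55+ B cells as abundant in Naïve and almost missing after ConA, and mature IgM+IgD+ B cells as far more frequent in ConA+Veh. The part of this difference in the level of *Nfkbid* was not tested.

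*Nfkbiz* in B cells was at 55.9 CPM in Naïve and 26.6 CPM in ConA+Veh, a log2 ratio of -1.07 (-1.43 to -0.72). Over the alternatives this ratio ran from -1.20 to 0.14, with the change of sign where depth was not corrected for. The call was also lost with every cell weighing the same (-0.23), with cycling cells left out (-0.97), with the median of all genes removed (-0.78), and with ribosomal protein, mitochondrial, haemoglobin and immunoglobulin genes out of the totals (-0.99). *Nfkb2* went from 100.7 to 51.0 CPM, just short of the 2-fold limit, with a log2 ratio of -0.98 (-1.24 to -0.73). *Rel* was at 329 CPM in Naïve and 189.5 CPM in ConA+Veh, *Relb* at 68.6 and 40.8 CPM, and *Tnfaip3* at 44.4 and 24.0 CPM, with log2 ratios of -0.80, -0.75 and -0.88. In contrast, *Nfkbia* differed by -0.16 (-0.28 to -0.05), from 360.5 to 322 CPM, and *Nfkbie* by 0.09 (-0.23 to 0.42).

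The B cell count of 2 of 10 members called lower is close to the background, since 18.4% of the 9473 genes tested were called lower and 7.35% higher. The interval of the ratio lay wholly below 0 for 9 of the 10 members, against 38.2% of all genes. That share covers every gene with at least 20 UMIs, and an interval leaves out 0 more easily at higher counts. The shares were not matched for abundance. The median log2 ratio was -0.77 over the members and -0.29 over all genes. Of the members, *Nfkbid* had the lowest ratio, at percentile 0.834 of all genes tested. The immediate early and stress genes, which cell isolation is known to raise, moved with this comparison: their 14 genes summed to 8535 CPM in the B cells of Naïve, and to 1950, 1712 and 2174 CPM in those of ConA+Veh, ConA+TCDD and ConA+FICZ, with 10 of the 13 tested called lower in ConA+Veh. The list was also lower in ConA+Veh than in Naïve in T cells (7090 and 1619 CPM), NK cells (8739 and 4008 CPM) and phagocytes (9255 and 4677 CPM). The part of stress during isolation in the level of *Nfkbid* was not tested.

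In T cells *Rel* and *Nfkb1* had higher levels in ConA+Veh than in Naïve, and *Tnfaip3* and *Relb* had lower levels, each by less than 2-fold. *Rel* was at 44.5 CPM in Naïve and 73.7 CPM in ConA+Veh, a log2 ratio of 0.73 (0.40 to 1.07), and *Nfkb1*, which encodes the p105 precursor of p50, was at 86.3 and 125 CPM, a log2 ratio of 0.53 (0.29 to 0.78). *Tnfaip3* was at 355 and 179 CPM, a log2 ratio of -0.99 (-1.12 to -0.85), just under 2-fold, and *Relb* was at 46.6 and 25.4 CPM, a log2 ratio of -0.87 (-1.24 to -0.50).

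None of the 10 was called in T cells, where 7.57% of 10051 genes were called higher and 14.8% lower, and the median log2 ratio was -0.14 over the members and -0.16 over all genes. *Nfkbia* was at 505 and 462 CPM (-0.13, -0.23 to -0.03), but T cell subsets differed in direction. Among T cells with UMIs of fewer than 2 cycling genes, those with at least 3 naive-type genes gave -0.67 (-0.86 to -0.47). The rest of these cells gave 0.61 (0.44 to 0.78). The mix of T cells did differ, since cells with UMIs of at least 2 cycling genes made up 2.88% of T cells in Naïve and 53.0% in ConA+Veh. With every cell holding a cycling gene left out, the log2 ratio was 0.54 for *Rel*, 0.43 for *Nfkb1* and -0.46 for *Tnfaip3*. Among CD4 T cells alone *Rel* went from 31.0 to 86.3 CPM, a log2 ratio of 1.48 (0.59 to 2.52) on 11 UMIs in Naïve, while in CD8 T cells the log2 ratio was 0.50, with an interval that reached 0. CD8 T cells with UMIs of fewer than 2 cycling genes had *Tnfaip3* at 272 CPM in Naïve and 156.5 CPM in ConA+Veh (log2 ratio -0.80, -1.12 to -0.48).

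In NK cells *Bcl3*, which encodes a nuclear partner of p50 and p52, rose from 32.9 to 77.4 CPM, a log2 ratio of 1.24 (0.17 to 2.51) that rested on 8 UMIs in Naïve, and *Relb* fell from 90.4 to 36.1 CPM, a log2 ratio of -1.32 (-2.18 to -0.45). *Nfkbia* was at 920 and 1216 CPM, a log2 ratio of 0.40 (0.19 to 0.62), and *Tnfaip3* at 608 and 418 CPM, a log2 ratio of -0.54 (-0.83 to -0.25). The calls, 1 of 10 in either direction, compare with 5.77% of 5496 genes called higher and 10.8% called lower, and neither met a minimum of 100 UMIs. The call of *Relb* was also lost with every cell weighing the same (-0.83) and where depth was not corrected for (-0.50).

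In phagocytes no member was called, against 3.75% of 7605 genes higher and 8.61% lower, and the medians were 0.03 over the members and -0.07 over all genes. *Nfkbia* was at 1111 CPM in Naïve and 1369 CPM in ConA+Veh (0.30, 0.16 to 0.44), and *Nfkb1* at 172 and 108 CPM (-0.68, -1.07 to -0.27). The class changed its make-up between these libraries, from 46 monocytes and 14 C1q-positive macrophages in Naïve to 45 and 175 in ConA+Veh. Within monocytes *Nfkbia* was lower in ConA+Veh, at 1070 CPM against 1513 CPM (-0.50, -0.73 to -0.27), which is the opposite direction to the whole class. *Nfkbid* in monocytes was at 141 CPM in Naïve and 39.5 CPM in ConA+Veh, on 28 and 13 UMIs (-1.83, -2.91 to -0.84). The interval also lay below 0 in monocytes for *Nfkbie* (-1.53, -2.69 to -0.44, on 21 and 12 UMIs), *Tnfaip3* (-1.29, -2.08 to -0.52), *Nfkbiz* (-1.06, -1.76 to -0.38) and *Nfkb1* (-0.86, -1.50 to -0.22). Among all genes tested in monocytes, *Nfkbid* lay at percentile 3.0, *Nfkbie* at 4.88, *Tnfaip3* at 7.66 and *Nfkbiz* at 11.4. *Nfkb1* lay at 15.3, *Nfkbia* at 25.8 and *Bcl3* at 50.8. The share of all genes called in monocytes is not given here, so no fall particular to the members is read. Over the whole class *Nfkbie* and *Nfkbiz* were at 0.22 and 0.10.

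**Figure D2:**
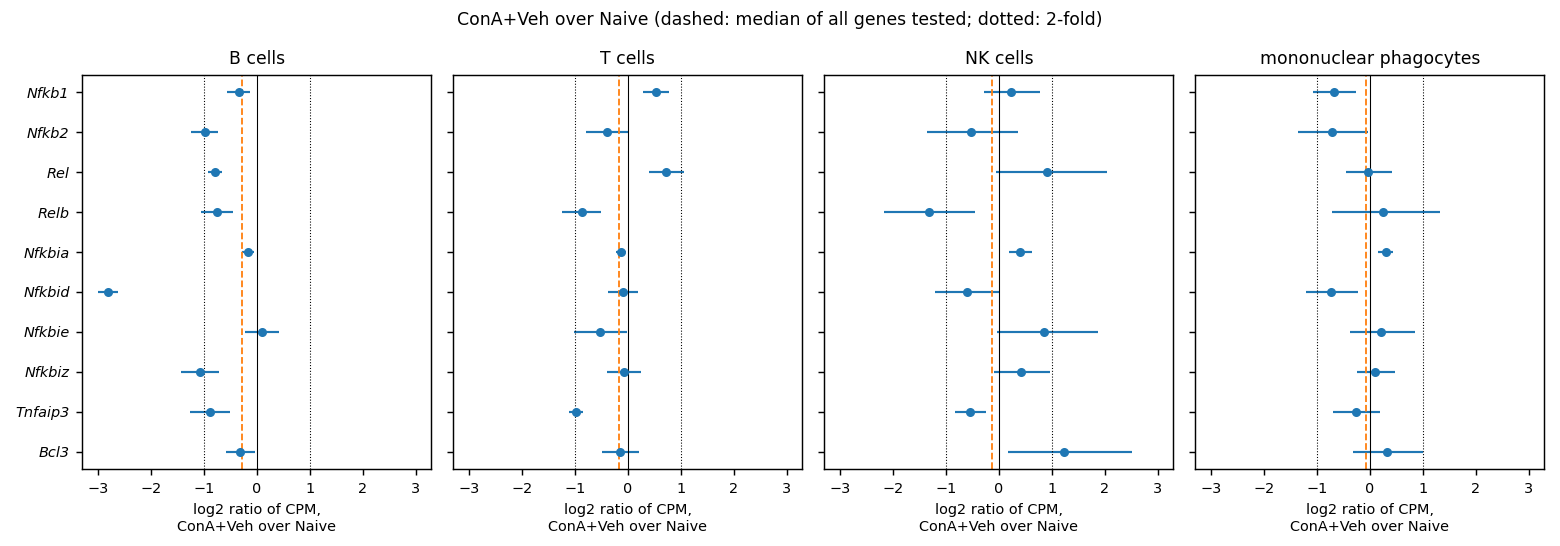
Log2 ratio of CPM, ConA+Veh over Naïve, for the 10 genes in 4 cell classes; bars are exact binomial 95% intervals (counting error only, 1 library per condition), the dashed line is the median of all genes tested in that class and dotted lines mark 2-fold. *Nfkbid* in B cells lies at -2.81, and in T cells *Rel* (0.73) and *Nfkb1* (0.53) lie to the right while *Tnfaip3* (-0.99) and *Relb* (-0.87) lie to the left.

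The other genes of the pathway, taken by role as ligands, receptors, kinases and adaptors, further subunits and brakes, and targets, gave the following in the same comparison. In B cells, 6 of 18 kinases and adaptors were called lower and none higher, among them *Map3k14*, the kinase of the alternative branch, at 33.9 CPM in Naïve and 9.62 CPM in ConA+Veh, and *Birc2*, a ubiquitin ligase that restrains it, at 70.1 and 24.7 CPM. Their median log2 ratio was -0.69, against -0.29 over all genes, of which 18.4% were called lower. Of 4 ligand genes tested, 2 were called lower, *Ltb*, a lymphotoxin chain, from 643 to 212 CPM and *Lta* from 11.9 to 2.09 CPM. Of 8 further subunits, inhibitors and brakes, *Rela*, the p65 subunit, was called lower at 81.7 and 37.6 CPM, as was *Zc3h12a*. Of 13 target genes, *Cd83* (829 and 261 CPM) and *Gadd45b* were called lower and *Ccl4* higher, and of 3 receptors none was called.

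In T cells, 3 of 5 ligand genes were called lower, with *Cd40lg*, the ligand by which helper T cells license B cells, from 129 to 24.2 CPM and *Ltb* from 627 to 184 CPM. Of 5 receptors tested, the costimulatory receptors *Tnfrsf9* and *Tnfrsf4* were called higher, from 29.7 to 101.5 CPM and from 56.2 to 147 CPM, and *Il18r1* was called lower. Of 18 kinases and adaptors, 3 were called lower, led by *Ikbke* from 56.2 to 12.8 CPM, and 3 of 13 targets were called higher, against 14.8% of all genes lower and 7.57% higher. In NK cells, of 7 further subunits, inhibitors and brakes *Nfkbib*, another IκB gene, was called higher, from 53.4 to 110 CPM. Of 9 targets, 3 were called lower, among them the chemokine genes *Ccl3* and *Ccl4*, *Ccl3* from 1204 to 294 CPM. Also called lower were *Ltb*, the 1 ligand tested, *Il18r1* of 4 receptors and *Tbk1* of 15 kinases and adaptors. Among all genes in NK cells, 5.77% were called higher and 10.8% lower. In phagocytes, 3 of 14 targets were called higher, among them *Ccl4* from 130.5 to 675 CPM, and *Ccl3* was called lower, from 308 to 110.0 CPM. Of 5 ligand genes, *Il1b*, from 268 to 543 CPM, and *Il1a* were called higher, as was *Cd40* of 7 receptors. Of 16 kinases and adaptors, *Ikbkb*, a catalytic subunit of the IκB kinase, was called lower, from 142 to 63.7 CPM, as was *Map3k14*, from 41.9 to 14.6 CPM, and of 8 further subunits, inhibitors and brakes *Tnip2* was called lower, from 48.9 to 20.5 CPM. These counts stand beside 3.75% of all genes called higher and 8.61% lower.

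The next comparisons concerned the libraries of mice given an AhR ligand on top of ConA. ConA+TCDD and ConA+FICZ were both set against the same ConA+Veh library, so any peculiarity of that library enters both, and the values are given side by side. After TCDD the IκB family genes *Nfkbid*, *Nfkbia* and *Nfkbiz* had higher levels in B cells, with differences under 2-fold. After FICZ, *Rel* had a lower level in B cells, T cells and phagocytes and *Bcl3* a higher level in lymphocytes, also under 2-fold. Calls were few: *Relb* fell in phagocytes with TCDD and *Nfkbie* fell in NK cells with FICZ.

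In B cells *Nfkbid* was at 58.4 CPM in ConA+Veh, 110 CPM in ConA+TCDD and 57.1 CPM in ConA+FICZ. The log2 ratio to ConA+Veh was 0.91 (0.66 to 1.17) for TCDD. *Nfkbia* was at 322, 512 and 359 CPM, with log2 ratios of 0.67 (0.56 to 0.78) and 0.16 (0.06 to 0.26). *Nfkbiz* was at 26.6, 42.5 and 20.6 CPM, with a log2 ratio of 0.68 (0.28 to 1.08) for TCDD. All 3 genes were thus highest in ConA+TCDD among the ConA libraries, and none of their TCDD intervals reached 0. Over the same 12 settings, the main one included, the TCDD ratio stayed above 0, at 0.43 to 1.03 for *Nfkbid*, 0.37 to 0.73 for *Nfkbia* and 0.10 to 0.92 for *Nfkbiz*. Its size thus depended on the processing, most for *Nfkbiz*. The unthinned share of B cells with *Nfkbid*, given above, was not higher in ConA+TCDD than in ConA+Veh. Erythroid cells, which should hold little *Nfkbia*, had it at 167 CPM in ConA+Veh (89.1 to 286) and 393 CPM in ConA+TCDD (293 to 517), so the level outside immune cells differed in the same direction; the part of free RNA was not tested. The same cells had 0 and 1 UMI of *Nfkbid*.

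*Rel* in B cells was at 189.5, 240.0 and 143 CPM in ConA+Veh, ConA+TCDD and ConA+FICZ, higher with TCDD (0.34, 0.18 to 0.50) and lower with FICZ (-0.40, -0.55 to -0.26). *Bcl3* was at 55.2, 68.6 and 88.4 CPM, with a log2 ratio of 0.68 (0.45 to 0.91) for FICZ. The median log2 ratio for TCDD was 0.24 over the members and 0.04 over all genes, and that for FICZ was 0.03 and 0.04. None of the 10 was called in either comparison. The background was 1.33% of genes higher and 1.95% lower for TCDD, and 1.98% higher and 1.53% lower for FICZ.

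By summed CPM, the TCDD difference in *Nfkbid* and *Nfkbiz* was not the same in 2 sets of B cells. B cells were split by whether they held a UMI of *Mreg*, *Cd86* or *Cd200*, genes of activated B cells, a split chosen with earlier results of these data known. The cells with such a UMI numbered 264, 263, 186 and 265 in the order Naïve, vehicle, TCDD and FICZ. In these cells *Nfkbid* was at 381, 48.3, 149 and 41.6 CPM, with a log2 ratio of 1.63 (1.26 to 2.0) for ConA+TCDD over ConA+Veh. In the 823, 573, 236 and 531 B cells without one it was at 421, 65.9, 64.6 and 69.3 CPM, with a log2 ratio of -0.03 (-0.46 to 0.39). The 2 intervals did not overlap. They cover counting error only, and how the UMIs were spread over the cells of each set was not tested. What share of all genes was called in each set is not given here, so no split particular to the members is read.

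*Nfkbiz* showed the same split, at 17.1 CPM in ConA+Veh and 46.3 CPM in ConA+TCDD in cells with a UMI of *Mreg*, *Cd86* or *Cd200* (1.44, 0.80 to 2.10) and at 33.7 and 38.2 CPM in the cells without (0.18, -0.40 to 0.74), with intervals that again did not overlap. *Nfkbia* did not, with log2 ratios of 0.78 (0.62 to 0.95) and 0.61 (0.45 to 0.76). The fall of *Nfkbid* from Naïve to ConA+Veh was present in both sets, with log2 ratios of -2.98 and -2.67. Cells with a UMI of the 3 genes were also more deeply sequenced, with medians of 6275 and 3966 UMIs in ConA+Veh and ConA+TCDD against 3655 and 2964 in the cells without, and the part of depth in the split was not tested.

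**Figure D3:**
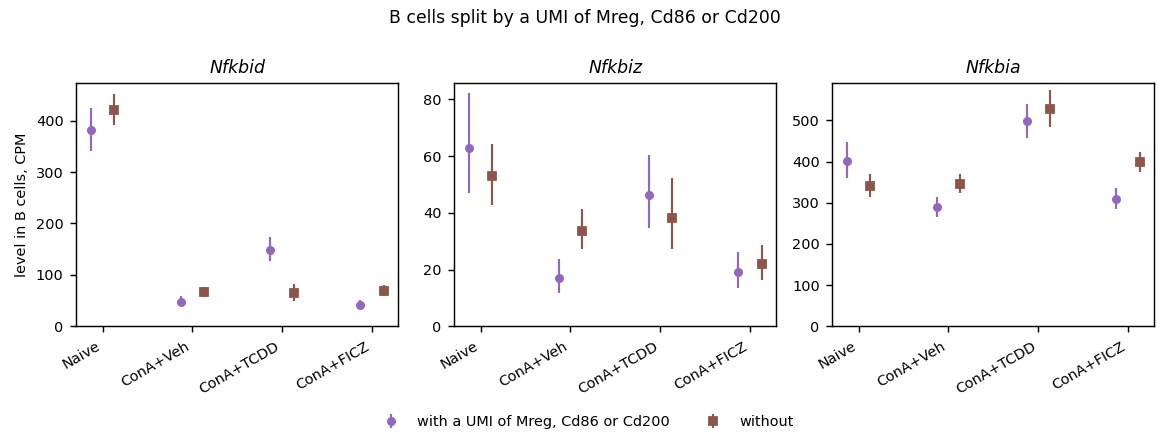
Level of *Nfkbid*, *Nfkbiz* and *Nfkbia* in CPM in B cells with a UMI of *Mreg*, *Cd86* or *Cd200* (circles) and B cells without one (squares), by library, with exact Poisson 95% intervals (counting error only). In ConA+TCDD the circle of *Nfkbid* (149 CPM) lies above the square (64.6 CPM), while in ConA+Veh and ConA+FICZ it lies below it.

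In T cells as a whole the subunits *Rel* and *Nfkb1* had lower levels with FICZ. Their levels with TCDD stayed within counting error of ConA+Veh over the whole class, but not for *Nfkb1* in the subsets given below. *Rel* was at 73.7 CPM in ConA+Veh, 71.1 CPM in ConA+TCDD and 42.03 CPM in ConA+FICZ, the last being close to the 44.5 CPM of Naïve. Its log2 ratio for FICZ was -0.81 (-1.01 to -0.61), and in CD8 T cells alone it was -1.0 (-1.3 to -0.72). *Nfkb1* was at 125, 122 and 77.4 CPM, with a log2 ratio of -0.69 (-0.84 to -0.54) for FICZ.

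*Tnfaip3* was at 179, 158 and 128 CPM (-0.49, -0.61 to -0.37 for FICZ), and *Bcl3* at 42.2, 48.7 and 72.2 CPM (0.77, 0.58 to 0.97 for FICZ). Hepatocytes of ConA+FICZ held *Bcl3* at 59.99 CPM (35.5 to 94.8), a level near that of T cells, and how much of the T cell value was free RNA was not tested. Hepatocytes had 0 UMIs of *Rel*, *Nfkb1* and *Tnfaip3*. No member was called for either ligand in T cells, against 0.88% of genes higher and 1.48% lower for TCDD, and 1.16% higher and 2.02% lower for FICZ.

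CD8 T cells with UMIs of fewer than 2 cycling genes, 126, 133 and 123 cells in the 3 ConA libraries, differed from the whole T cell class. In these cells *Nfkbid* was at 48.5 CPM in Naïve, 32.4 CPM in ConA+Veh, 82.4 CPM in ConA+TCDD and 91.3 CPM in ConA+FICZ. The log2 ratio to ConA+Veh was 1.35 (0.72 to 2.01) for TCDD and 1.5 (0.90 to 2.13) for FICZ, whereas over all T cells *Nfkbid* stayed at 61.1 to 65.2 CPM in the 4 libraries. Both ratios share the ConA+Veh value, which rested on 30 UMIs. *Bcl3* was at 33.5 CPM in ConA+Veh and 87.0 CPM in ConA+FICZ there (1.38, 0.79 to 2.01), and *Rel* at 68.0 and 28.4 CPM (-1.26, -1.91 to -0.63). *Nfkb1* was at 90.7 CPM in ConA+Veh (72.3 to 112) and 148 CPM in ConA+TCDD (124 to 174.5) in these cells. Cycling T cells went the other way, at 123 CPM (115 to 132) and 97.0 CPM (87.5 to 107). *Nfkbia* was at 300 and 575 CPM in the CD8 T cells and at 427.5 and 354 CPM in cycling T cells. The share of all genes called in these subsets is not given here, so no change particular to the members is read.

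**Figure D4:**
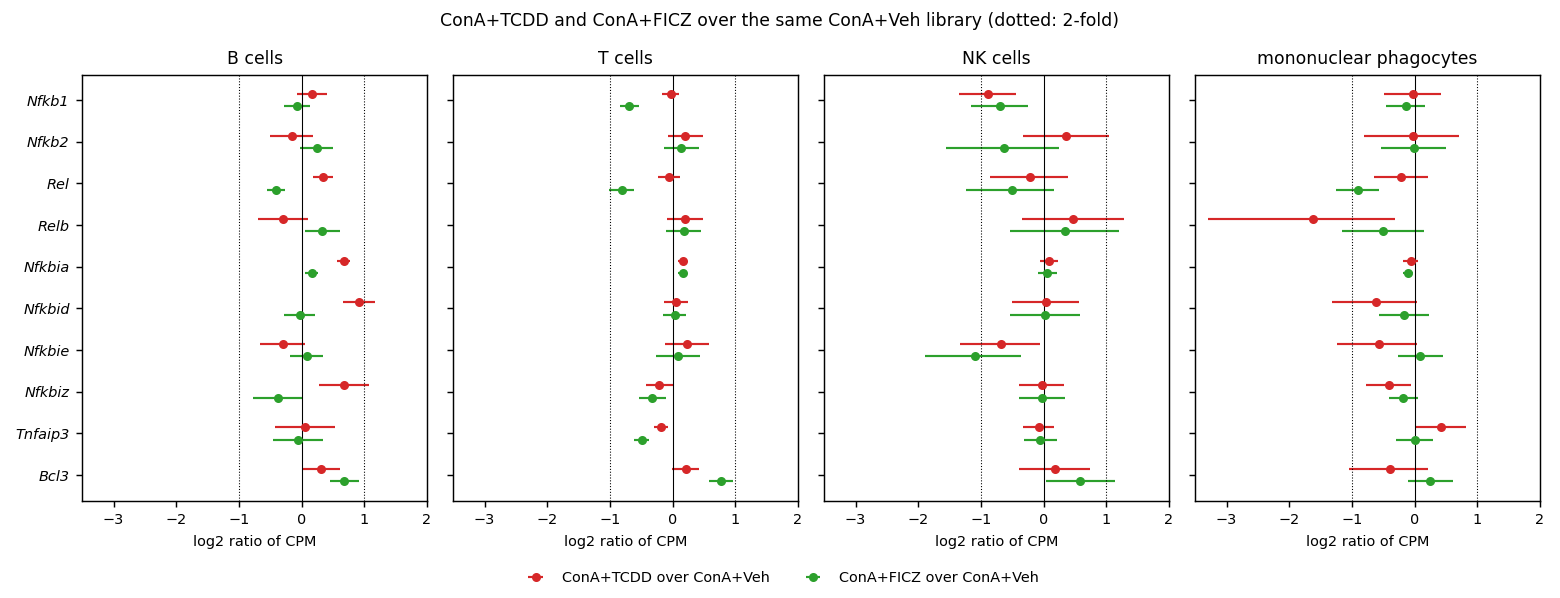
Log2 ratio of CPM over the same ConA+Veh library for ConA+TCDD (red) and ConA+FICZ (green) in 4 cell classes; bars are exact binomial 95% intervals (counting error only) and dotted lines mark 2-fold. In B cells *Nfkbid* (0.91) and *Nfkbiz* (0.68) lie to the right for ConA+TCDD, and *Rel* lies to the left for ConA+FICZ in T cells (-0.81), phagocytes (-0.90) and B cells (-0.40).

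At equal depth the shares of T cells with a UMI of *Rel* and *Nfkb1*, like their CPM, were higher in ConA+Veh and ConA+TCDD than in Naïve and ConA+FICZ. Thinned to 1000 UMIs, *Rel* was found in 5.06%, 8.60%, 8.99% and 5.91% of T cells in the order Naïve, vehicle, TCDD and FICZ, and *Nfkb1* in 8.50%, 14.9%, 17.2% and 7.35%, with 27, 23, 11 and 12 cells left out. The order of these shares departs from that of the CPM between ConA+Veh and ConA+TCDD, and for *Rel* also between Naïve and ConA+FICZ, so no order is read within these pairs. *Tnfaip3* was found in 32.2%, 24.5%, 22.6% and 16.3%. Without thinning its shares were 59.1%, 71.0%, 62.8% and 60.9%, another order than at equal depth; T cells of the ConA libraries had medians of 6279 to 8305 UMIs against 2655 in Naïve. In the 89 hepatocytes of ConA+FICZ with enough UMIs these 3 genes were found in 0. *Bcl3* was found in 2.02% to 8.07% of T cells and in 11.2% of those hepatocytes, all of them from ConA+FICZ; whether hepatocytes express *Bcl3* was not tested, and no difference between libraries is read from its shares.

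In B cells the share with *Rel* was 28.6%, 19.7%, 23.2% and 14.6% in the same order of libraries, which ranks them as its CPM does. The share with *Nfkbid* did not follow its CPM between the ConA libraries (6.51%, 8.07% and 8.83%), so no order is read from it.

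**Figure D5:**
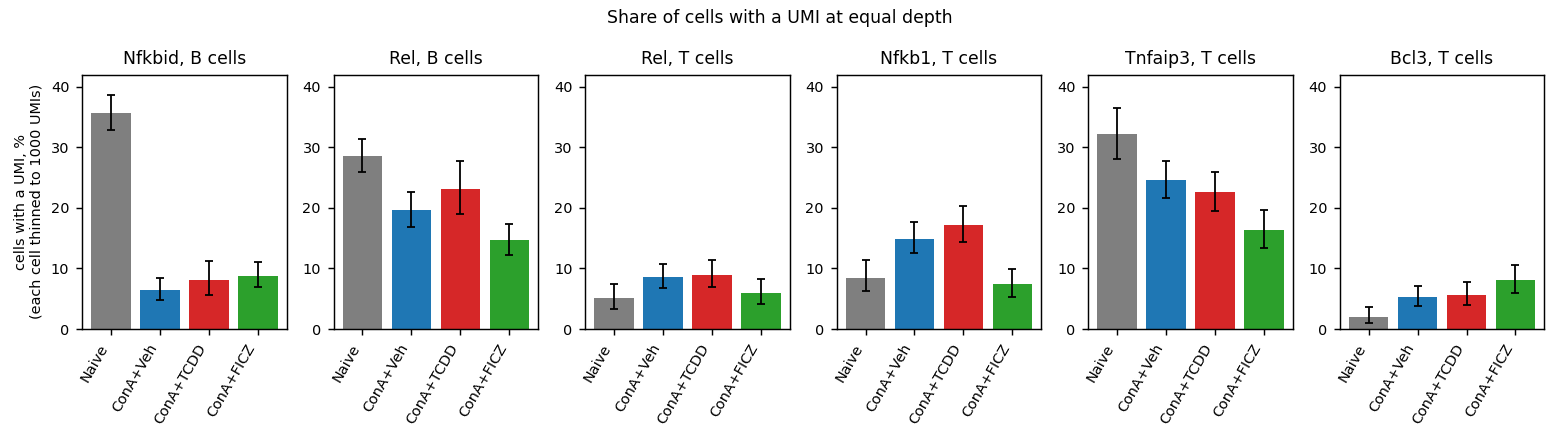
Share of cells with at least 1 UMI of a gene after every cell was thinned to 1000 UMIs, for *Nfkbid* and *Rel* in B cells and *Rel*, *Nfkb1*, *Tnfaip3* and *Bcl3* in T cells, by library; bars start at 0 and whiskers are exact binomial 95% intervals. *Nfkbid* drops from 35.7% of B cells in Naïve to 6.51% in ConA+Veh, and *Rel* and *Nfkb1* in T cells of ConA+FICZ (5.91% and 7.35%) lie near Naïve (5.06% and 8.50%).

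In NK cells *Nfkb1* was at 192 CPM in ConA+Veh, 104 CPM in ConA+TCDD and 119 CPM in ConA+FICZ, lower with both ligands (-0.89, -1.35 to -0.44, and -0.69, -1.16 to -0.24). *Nfkbie* was at 89.0, 55.5 and 41.8 CPM. It fell with FICZ, on 20 UMIs against 69, by a log2 ratio of -1.09 (-1.89 to -0.36), and its ratio for TCDD was -0.68 (-1.34 to -0.05). The call was lost with every cell weighing the same (-0.82), with cycling cells left out (-0.76) and at a minimum of 100 UMIs. *Nfkbia*, *Nfkbiz*, *Nfkbid* and *Tnfaip3* stayed within 0.1 of 0 on the log2 scale for both ligands. For FICZ this was 1 of 10 called lower and none higher, against 2.47% and 1.84% of genes, and for TCDD none, against 1.88% lower and 1.1% higher.

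In phagocytes *Rel* was at 127 CPM in ConA+Veh, 110 CPM in ConA+TCDD and 68.1 CPM in ConA+FICZ, with a log2 ratio of -0.90 (-1.25 to -0.57) for FICZ. C1q-positive macrophages, 175 and 166 cells, gave -0.98 (-1.40 to -0.57). Thinned to 1000 UMIs, *Rel* was found in 13.75% (9.66 to 18.8), 8.77% (2.91 to 19.3) and 9.48% (5.89 to 14.3) of phagocytes in that order of libraries. At 500 UMIs the shares were 7.34%, 3.28% and 7.11%, and without thinning 47.5%, 41.0% and 31.0%. The thinned shares did not follow the CPM, so no order is read from them. *Relb* fell with TCDD, from 30.2 to 9.85 CPM, on 5 UMIs against 56 (-1.62, -3.29 to -0.31), a call lost at a minimum of 100 UMIs and with cells gated by at least 3 markers. This class held 61 cells in ConA+TCDD, with the neutrophil markers at 6336 CPM given above, and the part of these cells in the value was not tested. *Relb* was at 13.7 CPM in the neutrophils of that library, on 1 UMI.

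*Tnfaip3* in the phagocytes of ConA+TCDD was at 150 CPM against 111 CPM in ConA+Veh (0.43, 0.03 to 0.82), and in C1q-positive macrophages at 226 against 119 CPM (0.93, 0.37 to 1.45) on 26 cells. The count was 1 of 10 lower and none higher for TCDD, against 3.36% of genes lower and 3.36% higher, and none for FICZ, against 3.69% higher and 1.88% lower.

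The ligands were also set against each other, ConA+FICZ over ConA+TCDD, with the doses and timing not known to match. *Rel* was lower with FICZ in B cells (-0.75, -0.91 to -0.58), T cells (-0.76, -0.97 to -0.54) and phagocytes (-0.70, -1.18 to -0.20). The thinned shares of phagocytes with *Rel*, given above, were not lower with FICZ than with TCDD. In B cells *Nfkbiz* was called lower (-1.04, -1.48 to -0.61), *Nfkbid* differed by -0.94 (-1.20 to -0.68) and *Nfkbia* by -0.51 (-0.62 to -0.40), while *Relb* was higher with FICZ (0.62, 0.23 to 1.02). *Bcl3* was higher with FICZ in B cells (0.37), T cells (0.57) and phagocytes (0.64), with intervals above 0 in each. For NK cells the interval of *Nfkb2* lay below 0 (-0.99, -1.93 to -0.11).

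These ratios gave 1 of 10 lower in B cells and no call elsewhere, and the call of *Nfkbiz* was lost with cells gated by at least 3 markers, with cells without a *Cd52* UMI left out, and where depth was not corrected for. Among all genes, 2.76% were called higher and 1.83% lower in B cells, 1.57% and 1.42% in T cells, 2.75% and 1.77% in NK cells, and 8.3% and 4.51% in phagocytes. Median log2 ratios over the members were -0.18, -0.08, -0.02 and 0.11 in these classes, and over all genes 0.0, 0.03, 0.04 and 0.11. A structural comparison of the ligands beyond this was not possible, since each was given in 1 library.

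Few other genes of the pathway passed the call rule between the ConA libraries. In B cells with TCDD, *Gadd45b*, a target gene that guards against cell death, was called higher, from 33.9 to 68.6 CPM, as was *Lta* on 12 UMIs, out of 13 targets and 4 ligands tested, and none of 18 kinases and adaptors was called. In T cells *Ltb* was called lower with TCDD, from 184 to 89.7 CPM, as were 2 of 13 targets, *Cxcl2* and *Ccl3*, the latter from 34.8 to 8.93 CPM. In NK cells 4 of 10 targets were called higher with TCDD and none lower, against 1.1% and 1.88% of all genes, with *Ccl3* from 294 to 1086 CPM and *Bcl2a1d* from 7.74 to 39.4 CPM on 6 and 22 UMIs. With FICZ, *Ccl3* was called higher in NK cells, at 693 CPM. The immediate early and stress genes moved with it, since 5 of 14 were called higher there and their sum was 4008 CPM in ConA+Veh and 5751 CPM in ConA+FICZ, and their part in the value was not tested. In phagocytes *Cd83* was called lower with both ligands, from 45.9 CPM in ConA+Veh to 19.7 CPM in ConA+TCDD and 11.0 CPM in ConA+FICZ. Of 14 targets tested there, 1 was called lower with TCDD and 3 with FICZ, against 3.36% and 1.88% of all genes. With TCDD, *Il18* of 5 ligands was called lower and *Map3k7* of 16 kinases and adaptors higher. The heat shock gene *Hspa1a*, a marker of stress in isolation, was called lower with TCDD in all 4 main classes.

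Last, the pattern of each member was compared with that of 9443 other genes over 22 groups of at least 50 cells, each a cell class in 1 library. The points share libraries, depth and cell type, so the correlations are descriptions. *Nfkbid* was most like *Cxcr4* (r = 0.93), *Gmip* (0.92) and *Cklf* (0.92), *Rel* like *Rilpl2* (0.91), *Grb2* (0.89) and *Pde4b* (0.87), and *Tnfaip3* like *Prex1* (0.96), *Spn* (0.92) and *Itgb7* (0.92). *Nfkbia* was most like *Tmem164* (0.92), *Diaph1* (0.91) and *Capza1* (0.91), *Nfkbie* like *Cyba* (0.96), *Nckap1l* (0.94) and *Hcls1* (0.94), and *Nfkbiz* like *Abr* (0.95), *S100a6* (0.94) and *Lrrfip2* (0.94). *Nfkb1* was most like *Nipbl* (0.95), *Traf3* (0.95) and *Cbfb* (0.93), *Nfkb2* like *Tbc1d1* (0.95), *Herc4* (0.94) and *Ccnt1* (0.94), *Relb* like *Esco1* (0.93), *Avl9* (0.92) and *Rsbn1l* (0.90), and *Bcl3* like *Cdk2ap2* (0.90), *Hcfc1r1* (0.89) and *Pdcd6* (0.87). Among the members themselves *Nfkbia* and *Nfkbiz* were the closest pair (r = 0.94), followed by *Nfkb1* and *Nfkb2*, and *Nfkb2* and *Nfkbid* (0.89 each), and *Rel* and *Tnfaip3* were the least alike (0.14).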

How the data were processed

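Liver mononuclear cells from 4 conditions were profiled with the 10x Genomics 5′ single-cell assay, 1 library per condition. The authors aligned reads to mm10 with Cell Ranger 3.0.2 (per the file headers and processing notes) and deposited raw UMI counts for each gene in each barcode, not normalized; the lowest barcode held 500 or 501 UMIs, and no column of the files was left unused. The number of mice per library is not given in the sources used here.

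The members and all lists were chosen with earlier results of these data known. A cell was gated when it held UMIs of at least 2 markers of a class and at least 2 times as many as of any other class; T cells also needed a *Cd3* UMI, and neutrophils, hepatocytes and erythroid cells needed at least 3 markers and 2% of UMIs. CD4 T, CD8 T, cycling, C1q-positive and monocyte subsets were cut by their own markers. Cycling subsets held UMIs of at least 2 cycling genes, while the alternative with cycling cells left out dropped every cell with a cycling gene. No doublet caller was run, and only the exclusive gate removed mixed cells. UMIs were summed per class and library and scaled by the UMI total of that class. With 1 library per condition the conditions were not tested against each other and no p-value is given. Intervals were exact Poisson, exact binomial for ratios and Clopper-Pearson for shares, at 95%; a count of 0 was set to a floor of 3 counts. A call needed 20 UMIs, 2-fold and an interval without 0, and the same rule was run over all genes for the background. For shares, cells were thinned to 1000 UMIs with seed 1. Likeness was Pearson's r of log2(CPM + 10) over groups of at least 50 cells, for genes with at least 200 UMIs.

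The genes named are the members, up to 2 called genes per direction from each pathway list, class and comparison (the text gives part of these), and the 3 genes most like each member. The split of B cells by *Mreg*, *Cd86* and *Cd200*, and the values shown for subsets, were chosen after values had been seen. The alternatives tried were 1.5-fold, no UMI minimum or 100 UMIs, other denominators and weights, a gate by 3 markers, a filter on cells under 200 genes or over 10% mitochondrial UMIs, cycling cells left out, the median removed, T subsets, thinning to 500 UMIs or none, and, chosen after seeing the data, cells without *Cd52* left out. The calls and intervals were run on simulated Poisson counts, with changes of known size planted in genes of at least 100 UMIs. These counts held no spread between cells, mice or libraries, so the simulation covers counting error only. The software was matplotlib 3.10.9, pandas 2.3.3, scipy 1.17.1 and numpy 2.4.6 under Python 3.11.15.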

Additional observations from a re-analysis of the deposited data

Results flagged for a closer look

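In several comparisons the ratio of a member lay on opposite sides of 0 in different cell classes, with intervals that left out 0 in each. These differences between classes rest on 1 library per condition and were not tested.

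For ConA+Veh over Naïve, *Nfkb1* had a log2 ratio of 0.53 in T cells, -0.34 in B cells and -0.68 in mononuclear phagocytes, and *Rel* had 0.73 in T cells and -0.80 in B cells. *Nfkbia* had 0.40 in NK cells and 0.30 in phagocytes, but -0.16 in B cells and -0.13 in T cells. Subsets within these classes differed in direction. *Nfkbia* had -0.67 in naive-type T cells, 0.61 in the other T cells without cycling, and -0.50 in monocytes. *Bcl3* had 1.24 in NK cells and -0.31 in B cells. The median over all genes was itself below 0 here, at -0.29 in B cells and -0.16 in T cells. Among all genes tested in B cells, *Bcl3* lay at percentile 49.2, *Nfkb1* at 47.5 and *Nfkbia* at 56.0. In T cells *Nfkbia* lay at percentile 51.4. These negative values thus lay near the middle of all genes, and no fall particular to these genes is read from them.

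For ConA+TCDD over ConA+Veh, *Nfkbiz* had 0.68 in B cells and -0.40 in phagocytes, and *Tnfaip3* had 0.43 in phagocytes and -0.18 in T cells. The *Nfkbiz* ratio in phagocytes ran from -0.50 to 0.05 over the alternatives. For ConA+FICZ over ConA+Veh, *Nfkbia* had 0.16 in B cells, 0.16 in T cells and -0.11 in phagocytes. Over the alternatives this ratio ran from -0.31 to 0.35 in T cells and from -0.26 to 0.28 in phagocytes. From ConA+Veh to ConA+FICZ, CD4 T cells went from 506 to 644 CPM, and CD8 T cells from 391 to 315 CPM. Monocytes went from 1070 to 1546 CPM. No direction is thus read for *Nfkbia* in T cells or phagocytes here. For ConA+FICZ over ConA+TCDD, *Nfkb2* had 0.40 in B cells and -0.99 in NK cells.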

How the results depend on the processing

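Leaving out a library was not possible with 1 per condition. No paired analysis was possible because each condition has 1 library. The counts of members called, of 10, were recomputed under each alternative, and the changed counts follow, in which the genes in parentheses are those called. The cause of a change was not tested beyond the setting itself. The share of all genes called under each alternative is not given here, so these counts are not read as results about the members. With no minimum of UMIs all 32 counts were the same. For ConA+Veh over Naïve the median ratio of all genes was -0.29 in B cells, -0.16 in T cells and -0.13 in NK cells, so changes are relative to these. Without the correction for depth this median was 0.92 in B cells, 1.42 in T cells and 0.7 in NK cells.

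With no correction for depth, *Nfkbiz* in B cells reversed to a log2 ratio of 0.14 for ConA+Veh over Naïve, and that comparison gave 2 higher in B cells (*Nfkbia*, *Nfkbie*) and 1 lower (*Nfkbid*), 8 higher in T cells, and 6 higher and 0 lower in NK cells; ConA+FICZ over ConA+TCDD gave 0 lower in B cells, 1 in NK cells (*Nfkb2*) and 1 in phagocytes (*Rel*), and ConA+FICZ over ConA+Veh 1 lower in phagocytes (*Rel*). With no thinning, the share of T cells with *Tnfaip3* in ConA+Veh minus that in Naïve reversed to 11.89 percentage points. Of the other share values followed in this way, 1 moved without reversing and 1 stayed the same. Thinning to 500 UMIs moved 2 of these share values and left 1 the same.

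With every cell weighing the same, ConA+Veh over Naïve gave 1 lower in B cells (*Nfkbid*), 2 higher in T cells (*Nfkb1*, *Rel*), 2 higher (*Rel*, *Bcl3*) and 0 lower in NK cells and 2 lower in phagocytes (*Nfkb1*, *Nfkb2*). ConA+FICZ over ConA+Veh gave 2 lower in T cells (*Nfkb1*, *Rel*) and 0 in NK cells, and *Relb*, *Nfkbid* and *Nfkbie* were the 3 lower for ConA+TCDD over ConA+Veh and the 3 higher for ConA+FICZ over ConA+TCDD in phagocytes.

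At 1.5-fold, ConA+Veh over Naïve gave 6 lower in B cells (*Nfkb2*, *Rel*, *Relb*, *Nfkbid*, *Nfkbiz*, *Tnfaip3*), 1 higher (*Rel*) and 2 lower (*Relb*, *Tnfaip3*) in T cells and 3 lower in phagocytes (*Nfkb1*, *Nfkb2*, *Nfkbid*). ConA+TCDD over ConA+Veh gave 3 higher in B cells (*Nfkbia*, *Nfkbid*, *Nfkbiz*) and 2 lower in NK cells (*Nfkb1*, *Nfkbie*). ConA+FICZ over ConA+Veh gave *Bcl3* as the 1 higher in B, T and NK cells, 2 lower in T cells (*Nfkb1*, *Rel*), 2 in NK cells (*Nfkb1*, *Nfkbie*) and 1 in phagocytes (*Rel*). ConA+FICZ over ConA+TCDD gave 1 higher (*Relb*) and 3 lower (*Rel*, *Nfkbid*, *Nfkbiz*) in B cells, 2 lower in T cells (*Nfkb1*, *Rel*), 1 in NK cells (*Nfkb2*), and 2 higher (*Nfkbie*, *Bcl3*) and 1 lower (*Rel*) in phagocytes.

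In B cells for ConA+Veh over Naïve, 1 member (*Nfkbid*) was lower with cycling cells left out, with the median removed, and with totals without ribosomal protein, mitochondrial, haemoglobin and immunoglobulin genes. In T cells 1 (*Tnfaip3*) was lower with the latter totals, the filter on cell quality and the gate by 3 markers, and 1 (*Rel*) was higher in CD4 T cells alone; CD8 T cells alone gave 1 lower for ConA+FICZ over ConA+Veh (*Rel*). In NK cells 2 (*Rel*, *Bcl3*) were higher with cycling cells left out, the median removed and cells without *Cd52* left out, the last chosen after seeing the data, and 0 were higher or lower at 100 UMIs.

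For ConA+FICZ over ConA+TCDD, B cells gave 2 lower (*Nfkbid*, *Nfkbiz*) with cycling or low-quality cells left out and 0 with the gate by 3 markers or without *Cd52*-negative cells, and NK cells gave 1 lower (*Nfkb2*) with those first 2 settings, the median removed, the other totals and the gate by 3 markers. For ConA+FICZ over ConA+Veh, NK cells gave 0 lower with cycling cells left out and at 100 UMIs and 2 (*Nfkb2*, *Nfkbie*) with the gate by 3 markers, and phagocytes 1 (*Rel*) with the median removed. For ConA+TCDD over ConA+Veh, phagocytes gave 0 lower at 100 UMIs and with the gate by 3 markers, B cells 1 higher (*Nfkbid*) with the quality filter, and NK cells 1 higher (*Relb*) with cycling cells left out.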

Other observations

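Neutrophils, which were few in Naïve (22 cells) and ConA+TCDD (34 cells), carried the highest levels of the IκB family genes *Nfkbia* and *Nfkbiz*. *Nfkbiz* was at 914 CPM in Naïve, 365 CPM in ConA+Veh, 480 CPM in ConA+TCDD and 567 CPM in ConA+FICZ, which put ConA+Veh below Naïve by a log2 ratio of -1.32 (interval -1.79 to -0.83) and ConA+FICZ above ConA+Veh by 0.63 (interval 0.35 to 0.93). *Tnfaip3* was at 352, 134, 96.0 and 215 CPM in the same order, the third value on 7 UMIs. *Nfkbid* was at 193, 91.4, 206 and 216 CPM, above ConA+Veh by 1.24 (interval 0.69 to 1.83) with FICZ and by 1.17 (interval 0.19 to 2.09) with TCDD, the latter on 15 UMIs against 34. Without the share of all genes called in neutrophils, which is not given here, no change particular to the members is read.

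The cells that met no marker rule, 335, 379 and 260 cells in ConA+Veh, ConA+TCDD and ConA+FICZ, also differed in the members. *Nfkb1* was at 173, 275 and 126 CPM in these cells, and *Rel* at 152, 236 and 86.9 CPM, both highest in ConA+TCDD. *Nfkbid* was at 88.5, 180.4 and 116 CPM, with a log2 ratio of 1.03 (0.68 to 1.38) for ConA+TCDD over ConA+Veh. What these cells are was not tested, and they entered none of the comparisons above. Their share of all genes called is likewise not given.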
